A study of Mus musculus with 16 samples.

Results

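Small nucleolar RNAs and small Cajal body RNAs were examined in regulatory T cells (Treg cells) of mice given rapamycin, with and without the autophagy gene Atg7. The members were all genes whose probe set carries a single gene symbol that starts with Snora, Snord or Scarna followed by a number, which gave 78 genes of the 22180 genes with 1 symbol. Of these, 47 were Snord genes, 26 were Snora genes and 5 were Scarna genes. Their RefSeq records were matched by gene identifier for all 78, and their annotated lengths ran from 48 to 248 bases with a median of 80.5 bases. Symbols starting with Olfr, which name olfactory receptor genes, gave 1105 genes that served as a silent comparison set.

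Small nucleolar RNAs are short non-coding RNAs that pair with other RNAs and bring a modifying enzyme to them. Box C/D RNAs (Snord) guide ribose methylation and box H/ACA RNAs (Snora) guide the conversion of uridine to pseudouridine, mostly in ribosomal RNA, while small Cajal body RNAs (Scarna) do the same for the small nuclear RNAs of the spliceosome. In mammals most of them lie in introns of host genes, many of which encode ribosomal proteins or other parts of the translation machinery, and are cut out of the spliced intron. Rapamycin inhibits the kinase complex mTORC1, which drives ribosome production, and Atg7 encodes an enzyme needed to build autophagosomes.

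The study measured 16 arrays in 4 groups of 4. Every mouse was of the C57BL/6 strain and carried a Foxp3-Cre, so that the floxed Atg7 gene is deleted in cells that express Foxp3. The groups were rapamycin Atg7-/- cells (Atg7fl/flFoxp3-Cre mice given rapamycin), untreated Atg7-/- cells (Atg7fl/flFoxp3-Cre), rapamycin Atg7+/- cells (Atg7+/flFoxp3-Cre mice given rapamycin) and untreated Atg7+/- cells (Atg7+/flFoxp3-Cre), and no group with 2 intact copies of Atg7 was used. Rapamycin was injected into the abdomen on 5 days, once daily, at a dose of 4 mg per kg. CD4+ cells with a yellow Foxp3 reporter were then sorted from spleen and lymph nodes, and the cells of all 4 groups were stimulated for 4 h through CD3 and CD28 before RNA was taken. No age of the mice is given in the labels. They also do not say whether the 4 replicates of a group are separate mice, so a p-value covers the spread among these arrays alone, part of which may be technical.

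The arrays were alike, with correlations of 0.9814 to 0.9947 between any pair over all genes. Treg markers were bright on every array, with 7 of 7 markers measured and gene means of 8.60 to 12.06, and Foxp3 averaged 10.99, 10.86, 11.34 and 11.26 in rapamycin Atg7-/-, untreated Atg7-/-, rapamycin Atg7+/- and untreated Atg7+/- cells. The mean of 2 B cell markers was 3.69 to 3.96 and that of 4 CD8 T and NK cell markers was 4.52 to 5.07 on the 16 arrays. Of the latter, Cd8b1 was brighter, at 6.49 to 7.76. It was higher in rapamycin Atg7-/- cells (6.78 to 7.76) than in rapamycin Atg7+/- cells (6.49 to 6.68), with a limma adjusted p under 0.05. The 4 myeloid markers averaged 4.69 to 5.74 in rapamycin Atg7-/- cells, 5.33 to 5.54 in untreated Atg7-/- cells, 5.33 to 5.69 in rapamycin Atg7+/- cells and 5.19 to 5.38 in untreated Atg7+/- cells, and the part of other cells in the results below was not tested. Among the Treg markers, Tnfrsf18 rose with rapamycin in Atg7-/- and Atg7+/- cells (0.26 and 0.29), while Cd4 (-0.75 and -0.67) and Cd3e (-0.35 and -0.55) fell in both and Ctla4 fell in Atg7-/- cells (-0.37). In Atg7-/- cells the call of Cd3e was lost in 4 of 25 alternative settings and that of Ctla4 in 1. Foxp3 was lower in untreated Atg7-/- than in untreated Atg7+/- cells (-0.40, limma adjusted p = 0.0447). The part of these shifts in the results was not tested either. Atg7 itself was at 6.05 to 6.62 on the untreated Atg7-/- arrays, against 6.59 to 6.74 on the untreated Atg7+/- arrays, a difference of -0.28 that did not pass (limma, adjusted p = 0.347). The sources used here do not say which of its probes lie in the deleted part, so this value does not check the genotype.

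One array stood apart for these RNAs. The mean of the 78 members on rapamycin Atg7-/- replicate 3 was 6.63, against 6.94 to 7.02 on the other 3 arrays of that group. Its members deviated from their group means by 0.4911 (root mean square), against 0.1549 to 0.3061 on the other 15 arrays. Over all genes its deviation was the largest as well, at 0.2266, against 0.1373 to 0.2003. The myeloid marker Lyz2 was highest on this array, at 7.94, against 4.45 to 7.46 on the other 15, and its part was not tested. Its median over all probe sets was also the lowest, at 4.41, against 4.51 to 4.63 on the others. Counts and medians of the rapamycin comparison in Atg7-/- cells are therefore given with and without it. Of the 18 members called there, Snora62, Snora74a, Snord16a and Scarna10 were not called without it, while Snora47, Snord8 and Snord85 were.

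Most members were well above the level of the receptor genes. A member's level here is its mean log2 signal over the 16 arrays, and these levels ran from 3.09 for Snord90 to 10.82 for Snord104, with a median of 6.96. The receptor genes had a median of 2.78 and a highest level of 7.12, and all genes had a median of 4.59. Of the 78 members, 72 lay above the median of all genes, 34 lay above the brightest receptor gene and 16 ranked in the top 10% of all genes by level. Only Snord90 and Snora15 lay under 3.549, the 30th percentile of all deposited values. Probe sets differ in how well they bind, so the order of levels between genes is that of the probe sets and not of RNA amounts.

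The 3 classes covered much the same range of levels. The 10 brightest members were Snord104, Snora33, Scarna17, Snora21, Snord17, Snora23, Snord49b, Snord47, Snora75 and Snord53. The median level was 6.95 for Snord genes, 7.03 for Snora genes and 6.34 for Scarna genes. Snora35, which lies in an intron of the serotonin receptor gene Htr2c and is known from brain, had a level of 3.93 with no array above 4.55.

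**Figure D1:**
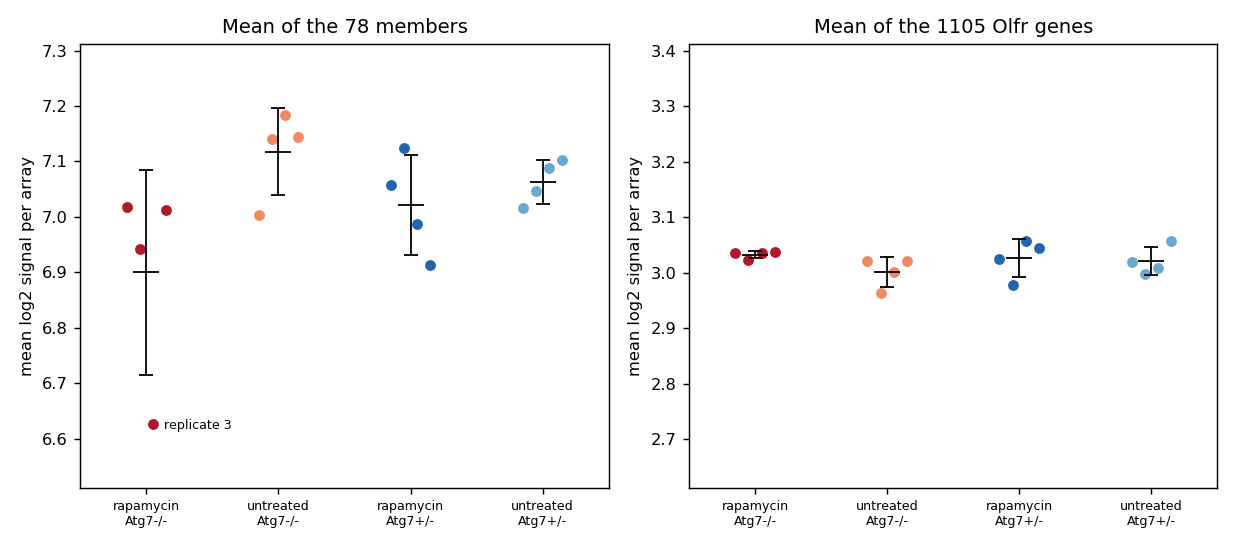
Mean log2 signal per array of the 78 small RNA genes (left) and of the 1105 olfactory receptor genes (right), both axes spanning the same range, with group mean and SD (bars, n = 4). Rapamycin Atg7-/- replicate 3 sits at 6.63 among the small RNA genes, and the receptor means stay between 2.96 and 3.06.

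A set of small RNAs fell with rapamycin in Atg7-/- cells. In the limma fit, 18 of the 78 members passed an adjusted p of 0.05, of which 16 fell and 2 rose, which is 23.1% of the members. Over all genes 14.8% passed, with 8.09% lower and 6.66% higher, and 8.6% of the receptor genes passed. Among genes brighter than 3.549, as 76 of the 78 members were, 18.3% of all genes and 17.4% of the 201 receptor genes passed. The median change of the members was -0.20 (log2, rapamycin over untreated), against -0.03 over all genes and 0.03 over the receptor genes, and 58 of the 78 members lay below 0. Without rapamycin Atg7-/- replicate 3, 13 fell and 4 rose, 14 of these 17 were among the 18, and the median was -0.13. The 17 were 21.8% of the members, against 14.8% of all genes, 8.42% of the receptor genes and 19.9% of the receptor genes brighter than 3.549. With only the compared arrays in the fit, 11 members passed (14.1%), against 9.97% of all genes, and without untreated Atg7-/- replicate 2 it was 12 members, against 12.3% of all genes.

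The members that fell came from all 3 classes. Among Snora genes 6 of 26 fell and none rose, with a median change of -0.36, and 14 (53.8%) had an unadjusted p under 0.05 in limma, against 29.2% of all genes. Without rapamycin Atg7-/- replicate 3, 4 Snora genes fell and 1 rose, and the median was -0.16. There 9 of the 26 had such a p, against 6452 of the 22180 genes. With all arrays 16 Snord genes (34%) and 4 Scarna genes (80%) had such a p, and without that array 16 and 5. Among Snord genes 8 of 47 fell and 1 rose, with a median of -0.19, and without that array 7 fell and 3 rose, with a median of -0.09. Among the 5 Scarna genes, Scarna2 and Scarna17 fell and Scarna10 rose. In 11 members the 4 rapamycin arrays did not overlap with the 4 untreated arrays, 10 of them lower with rapamycin. Over both directions 17.3% of all genes had no overlap, so that the count of 11 was not above the background. By direction, 10 of 78 members were lower and 1 higher, against 2155 and 1680 of 22180 genes, so the members leaned more to lower. Without replicate 3 the arrays of 20.5% of the members did not overlap, 11 members lower and 5 higher, against 25% of all genes, 3256 lower and 2278 higher.

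With all 16 arrays in the fit, fewer members passed in Atg7+/- than in Atg7-/- cells, and their share was near the background. The limma fit called 10 of 78 members (12.8%), of which 7 fell and 3 rose. Over all genes 10% passed, with 5.7% lower and 4.32% higher. Among genes brighter than 3.549 the share was 12.8%, and among receptor genes it was 5.34%, or 14.9% of the brighter ones. The median change of the members was -0.06, against -0.03 over all genes, and it was -0.02 without untreated Atg7+/- replicate 3 and -0.11 after the arrays were centred on their own medians. In 13 members the arrays did not overlap, 8 of them lower with rapamycin, against 18.6% of all genes. With only the compared arrays in the fit, 13 members passed (16.7%), against 11.3% of all genes. That was more than the 11 that passed in Atg7-/- cells in such a fit.

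**Figure D2:**
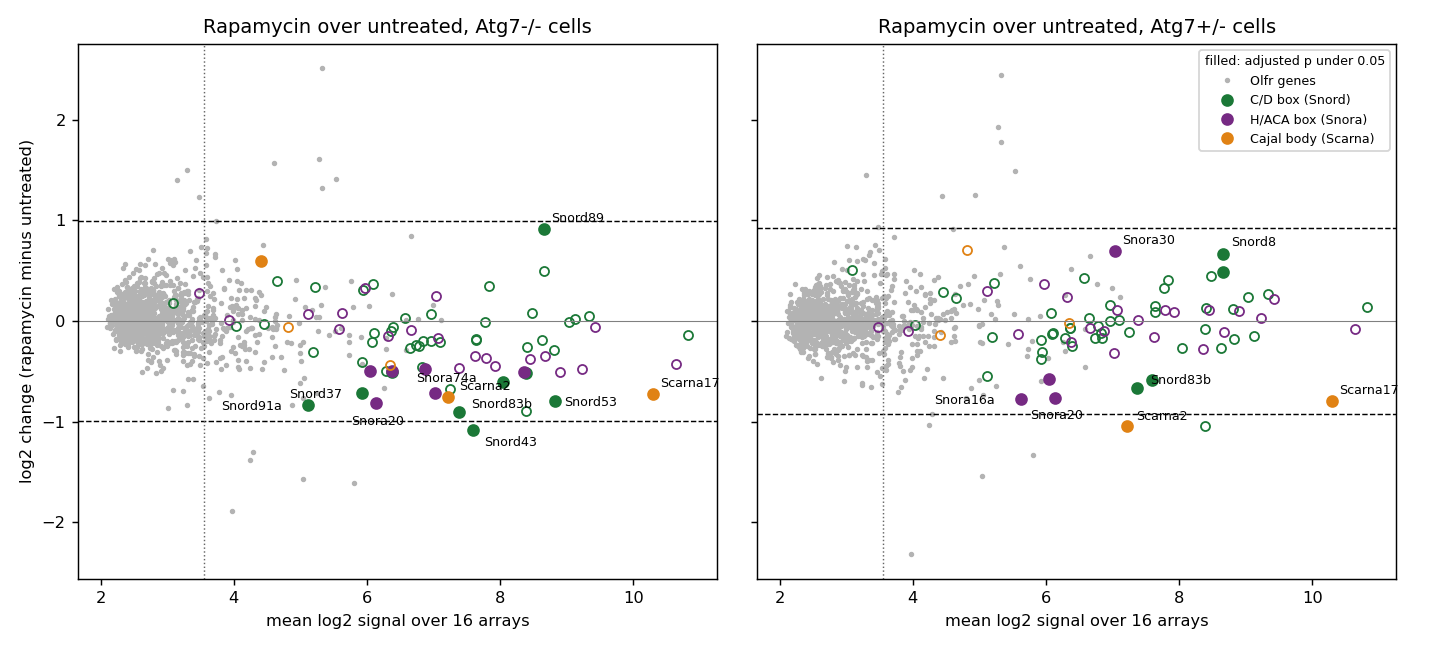
Log2 change with rapamycin against mean log2 signal for the small RNA genes (coloured, filled where the limma adjusted p was under 0.05) and the receptor genes (grey), in Atg7-/- cells (left) and Atg7+/- cells (right). Dashed lines mark the 95th percentile of the absolute change of receptor genes brighter than the dotted line at 3.549 (0.996 and 0.925), which 1 called member passes in each panel, Snord43 on the left and Scarna2 on the right.

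Snord43 and Snord83b, box C/D RNAs that lie inside the ribosomal protein gene Rpl3, fell in both genotypes. Snord43 was at 7.21, 6.99, 6.94 and 7.20 on the rapamycin Atg7-/- arrays, against 8.12, 8.17, 8.32 and 8.04 on the untreated Atg7-/- arrays. It was at 7.33, 7.42, 7.29 and 7.03 on the rapamycin Atg7+/- arrays, against 7.95, 7.96, 7.72 and 7.77 on the untreated Atg7+/- arrays. Every rapamycin array was lower than every untreated array of its genotype. The log2 change was -1.08 (SE 0.1031) in Atg7-/- cells and -0.58 (SE 0.1031) in Atg7+/- cells, with limma adjusted p = 4.94e-06 and 0.00169.

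Snord83b had nearly the same pattern. It was at 7.03, 6.83, 6.84 and 7.17 in rapamycin Atg7-/- cells, against 7.80, 7.79, 7.86 and 8.03 in untreated Atg7-/- cells. With rapamycin in Atg7+/- cells the values were 6.91, 6.99, 7.09 and 6.99, against 7.48, 7.65, 7.74 and 7.77 without it. No group overlapped with its untreated counterpart, and the changes were -0.90 and -0.66 (SE 0.0961 each, limma adjusted p = 1.1e-05 and 0.00035).

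Rpl3 itself, the host of both, did not pass in either genotype. It was at 11.24, 10.96, 10.26 and 10.98 in rapamycin Atg7-/- cells, against 11.20, 11.17, 11.21 and 11.36 in untreated Atg7-/- cells, and the lowest rapamycin array was replicate 3. The change was -0.38 (limma adjusted p = 0.1) in Atg7-/- cells, or -0.18 without that array, and 0.03 (adjusted p = 0.936) in Atg7+/- cells. Ribosomal protein genes have many near-identical pseudogenes, so the Rpl3 value is uncertain for that reason.

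Of the Cajal body RNAs, Scarna17 had the smallest spread. It was at 9.96, 9.71, 9.79 and 9.85 in rapamycin Atg7-/- cells, against 10.48, 10.50, 10.52 and 10.71 in untreated Atg7-/- cells. The rapamycin Atg7+/- arrays read 9.92, 10.16, 10.09 and 9.86, against 10.79, 10.82, 10.80 and 10.80 on the untreated Atg7+/- arrays. The groups were apart in both genotypes, and Scarna17 fell by 0.72 and 0.79 on the log2 scale (SE 0.08799 each, limma adjusted p = 3.9e-05 and 3.32e-05). Its dimmer probe set, with a mean of 9.11, changed by -0.82 and -0.94.

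Scarna2, one of 4 members that lie inside no other annotated gene, also fell in both genotypes. It was at 6.49, 6.74, 7.23 and 6.50 in rapamycin Atg7-/- cells, against 7.62, 7.76, 7.49 and 7.14 in untreated Atg7-/- cells, and the ranges overlapped through 1 array of each group. In Atg7+/- cells it was at 6.14, 6.96, 7.36 and 6.74 with rapamycin, against 7.77, 7.63, 8.13 and 7.83 without it, with no overlap. The changes were -0.76 and -1.04 (SE 0.2125 each, limma adjusted p = 0.0212 and 0.00491). The call in Atg7-/- cells was lost without rapamycin Atg7-/- replicate 1 or 4 or untreated Atg7-/- replicate 1 or 2, with changes of -0.72 to -0.67.

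The remaining Scarna genes were less steady. Scarna10, which carries both C/D and H/ACA parts, was dim, at 4.39, 4.55, 5.56 and 5.05 in rapamycin Atg7-/- cells, against 4.24, 4.55, 4.27 and 4.09 in untreated Atg7-/- cells. The ranges overlapped, and its call sat at the threshold (change 0.60, limma adjusted p = 0.0499) and was lost in 15 of 25 alternative settings, among them that without replicate 3 (0.38, adjusted p = 0.144). Scarna6, inside the autophagy gene Atg16l1, changed by -0.43 and -0.02 (limma adjusted p = 0.119 and 0.958). Scarna8 changed by -0.06 and 0.70 (adjusted p = 0.928 and 0.177), and its value of 3.17 on rapamycin Atg7-/- replicate 3 lay far under the 4.97 to 5.22 of the other 3 arrays. Without that array its change in Atg7-/- cells was 0.42 (adjusted p = 0.12), the opposite sign.

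**Figure D3:**
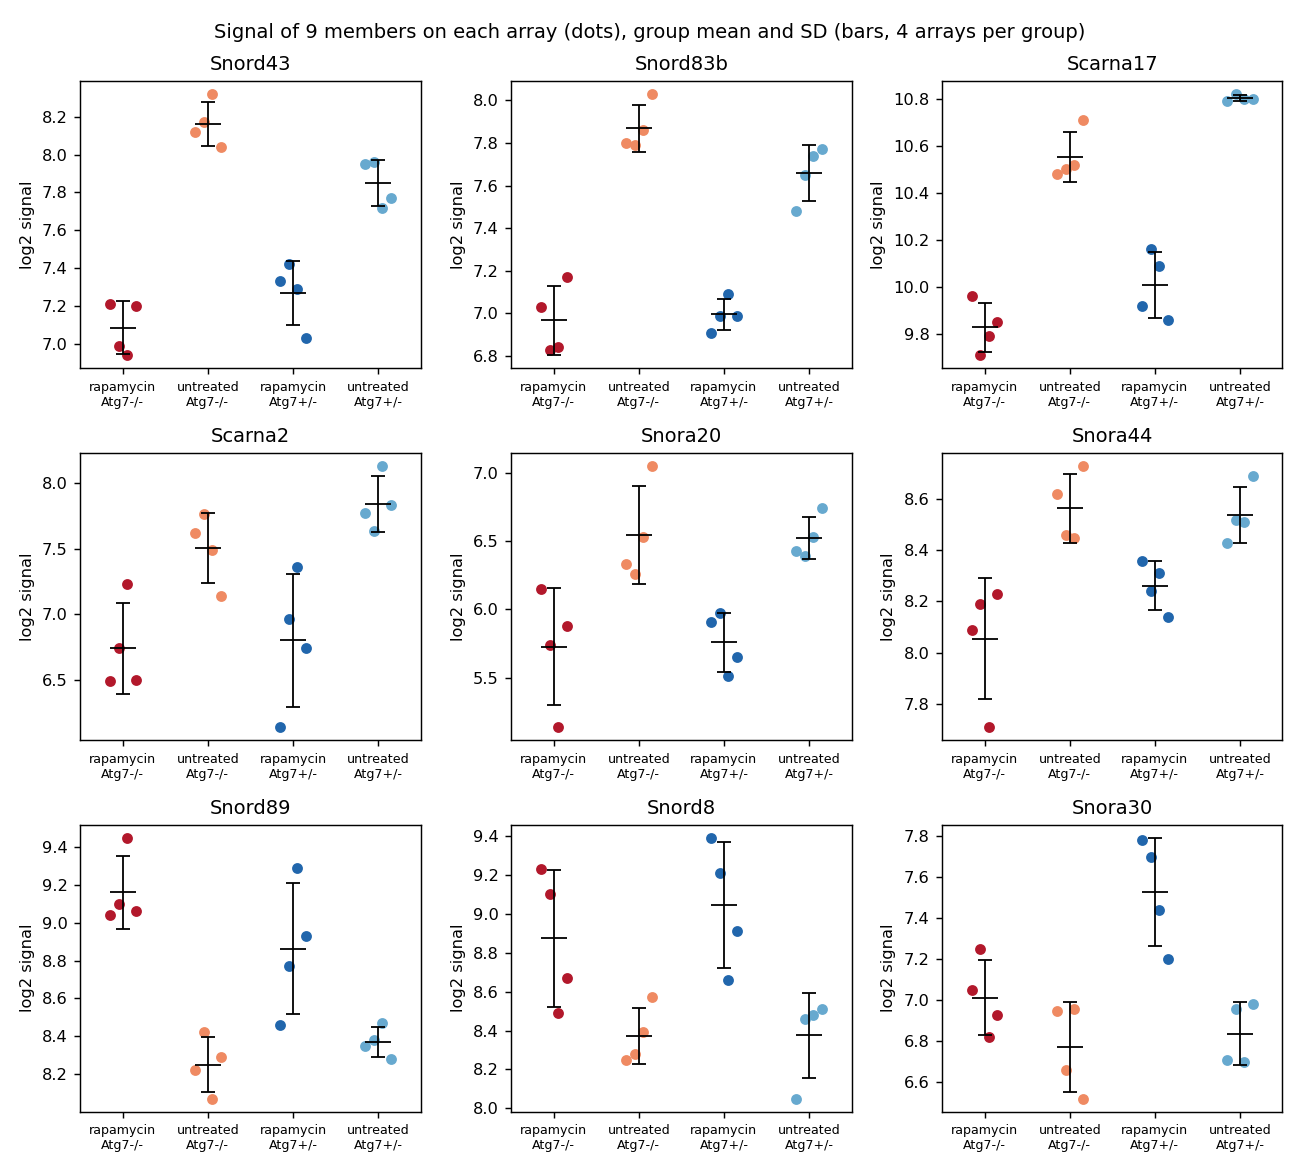
Log2 signal of 9 small RNA genes on each array (dots), with group mean and SD (bars, n = 4), rapamycin left of untreated in each genotype; each panel has its own axis range. Snord43, Snord83b, Scarna17, Snora20 and Snora44 have rapamycin arrays under every untreated array of the same genotype, and Snord89, Snord8 and Snora30 have higher means with rapamycin.

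Among H/ACA members, Snora20 fell in both genotypes, as did Snora62 by a call that 1 array could end. Snora20, inside the chaperonin gene Tcp1, was at 6.15, 5.74, 5.14 and 5.88 in rapamycin Atg7-/- cells, against 6.33, 6.26, 6.53 and 7.05 in untreated Atg7-/- cells. Values in rapamycin Atg7+/- cells were 5.91, 5.97, 5.51 and 5.65, against 6.43, 6.39, 6.53 and 6.74 in untreated Atg7+/- cells. No array overlapped in either genotype, and the changes were -0.82 and -0.76 (SE 0.1894 each, limma adjusted p = 0.00696 and 0.0157). Snora62, inside the ribosomal protein gene Rpsa, changed by -0.49 and -0.58 (adjusted p = 0.0211 and 0.0125), with overlapping arrays in Atg7-/- cells and none in Atg7+/- cells. Its call in Atg7-/- cells was lost without rapamycin Atg7-/- replicate 3 (-0.36, adjusted p = 0.0633) and without untreated Atg7-/- replicate 1 or 2 (-0.43 and -0.44).

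Other Snora genes passed in 1 genotype. Snora74a fell in Atg7-/- cells by 0.72, Snora44 by 0.51, Snora68 by 0.50 and Snora73a by 0.48 on the log2 scale. The call of Snora74a was lost without rapamycin Atg7-/- replicate 3, where its change was -0.47 (limma adjusted p = 0.0573), and without rapamycin replicate 2 or untreated replicate 2 or 3 of that genotype (-0.69 to -0.68). That of Snora68 was lost without rapamycin replicate 2 or 4 or untreated replicate 1 (-0.44 to -0.43). Snora73a belongs to a small family needed for cleavage of the ribosomal RNA precursor, and it was at 6.76, 6.77, 6.6 and 6.75 in rapamycin Atg7-/- cells, against 7.20, 7.22, 7.44 and 6.93 in untreated Atg7-/- cells, with no overlap (limma adjusted p = 0.00534). Its close relative Snora73b, in the same host Snhg3, changed by -0.36 (adjusted p = 0.116), and probes of the pair may be shared. Snora44 was also lower on every rapamycin array in Atg7+/- cells, where its change of -0.27 did not pass (adjusted p = 0.128). Snora16a fell by 0.77 in Atg7+/- cells (limma adjusted p = 0.0228), while its change in Atg7-/- cells was 0.08, or -0.04 without rapamycin Atg7-/- replicate 3. The call was lost without rapamycin Atg7+/- replicate 1 or 2 or untreated Atg7+/- replicate 1 (-0.69 to -0.57).

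Among Snord genes, 6 more fell in Atg7-/- cells. Snord53, one of the 10 brightest members, was at 8.70, 8.51, 7.34 and 8.86 in rapamycin Atg7-/- cells, against 9.08, 9.29, 9.07 and 9.15 in untreated Atg7-/- cells. The groups did not overlap, replicate 3 was far lower than the others, and the change was -0.79 (SE 0.2293, limma adjusted p = 0.0257). Without rapamycin Atg7-/- replicate 3 it still passed, but the change was -0.46 (adjusted p = 0.0314). Its call was lost without untreated Atg7-/- replicate 2 or 4 (-0.74 and -0.79). The other 5, named here after their values were seen, were Snord91a (-0.83), Snord37 (-0.72), Snord87 (-0.61), Snord16a (-0.52) and Snord42b (-0.51). The arrays of Snord87 did not overlap, and those of the other 4 did. Snord16a lost its call in 7 of 25 settings, which included the one without rapamycin Atg7-/- replicate 3 (-0.34, limma adjusted p = 0.1). Snord37 lost it without rapamycin or untreated Atg7-/- replicate 2 (-0.60 and -0.58), and Snord42b without untreated Atg7-/- replicate 2 or 3 (-0.39 and -0.44).

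Snord89 rose in both genotypes and lies inside no other annotated gene. It was at 9.04, 9.10, 9.45 and 9.06 in rapamycin Atg7-/- cells, against 8.22, 8.42, 8.07 and 8.29 in untreated Atg7-/- cells, with no overlap. In Atg7+/- cells it was at 8.46, 8.77, 9.29 and 8.93 with rapamycin, against 8.35, 8.38, 8.47 and 8.28 without it, and the lowest rapamycin array fell within the untreated range. The changes were 0.91 and 0.49 (SE 0.1395 each, limma adjusted p = 0.000314 and 0.0314), and the call in Atg7+/- cells was lost in 9 of 25 alternative settings, with changes of 0.35 to 0.63 over all 25.

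Snord8 and Snora30 rose in Atg7+/- cells. Snord8 was at 9.39, 9.21, 8.66 and 8.91 with rapamycin, against 8.05, 8.46, 8.48 and 8.51 without it, and changed by 0.67 (SE 0.1683, limma adjusted p = 0.017). That call was lost without rapamycin Atg7+/- replicate 1 or 2 or untreated Atg7+/- replicate 1 (0.55 to 0.61). Its change of 0.50 in Atg7-/- cells missed the threshold (adjusted p = 0.0545), and its arrays overlapped, while without rapamycin Atg7-/- replicate 3 it passed (0.62, adjusted p = 0.018). Snora30, inside the chromatin remodelling gene Srcap, was at 7.78, 7.70, 7.44 and 7.20 with rapamycin in Atg7+/- cells, against 6.71, 6.96, 6.70 and 6.98 without it, with no overlap. It changed by 0.69 (SE 0.1365, adjusted p = 0.00389) in Atg7+/- cells and by 0.24 (adjusted p = 0.249) in Atg7-/- cells.

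Some members with large changes and widely spread arrays did not pass. Snord13 had the largest change of any uncalled member, -0.89 in Atg7-/- cells and -1.04 in Atg7+/- cells (limma adjusted p = 0.223 and 0.182). It was at 7.59, 7.91, 8.78 and 8.76 in rapamycin Atg7-/- cells, against 7.98, 8.78, 9.41 and 10.44 in untreated Atg7-/- cells. In Atg7+/- cells it was at 7.47, 6.92, 8.64 and 7.20 with rapamycin, against 9.06, 7.39, 9.20 and 8.75 without it. Snord118, which is needed to process the large-subunit ribosomal RNAs, changed by -0.25 and -0.05 (adjusted p = 0.497 and 0.918).

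Both genotypes had 7 called members in common, of which 6 fell (Snord43, Snord83b, Scarna17, Scarna2, Snora20 and Snora62) and 1 rose (Snord89). They are 38.9% of the 18 called in Atg7-/- cells and 70% of the 10 called in Atg7+/- cells, and 21 members passed in at least 1 genotype. Over all genes the shares were 42.4% and 62.3%. Without rapamycin Atg7-/- replicate 3, Snora62 dropped out and 9 members passed in both. The rapamycin comparisons of the 2 genotypes share no arrays. Across the 78 members their changes correlated with r = 0.651, against 0.714 over all genes and 0.837 over the receptor genes brighter than 3.549. Without that array they were 0.787, 0.732 and 0.84. These values run across genes, which are not independent replicates. By r the members were no more alike between genotypes than the receptor genes brighter than 3.549 were. Over all 1105 receptor genes r was 0.691, and 0.693 without that array, where the members were higher. Spearman's correlation with all arrays was 0.613 for the members, 0.641 for the brighter receptor genes and 0.449 for all receptor genes. In 5 members, Scarna17, Snora20, Snora44, Snord43 and Snord83b, arrays did not overlap in the same direction in both genotypes, which is 6.41% of the members, against 7.69% of all genes.

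**Figure D4:**
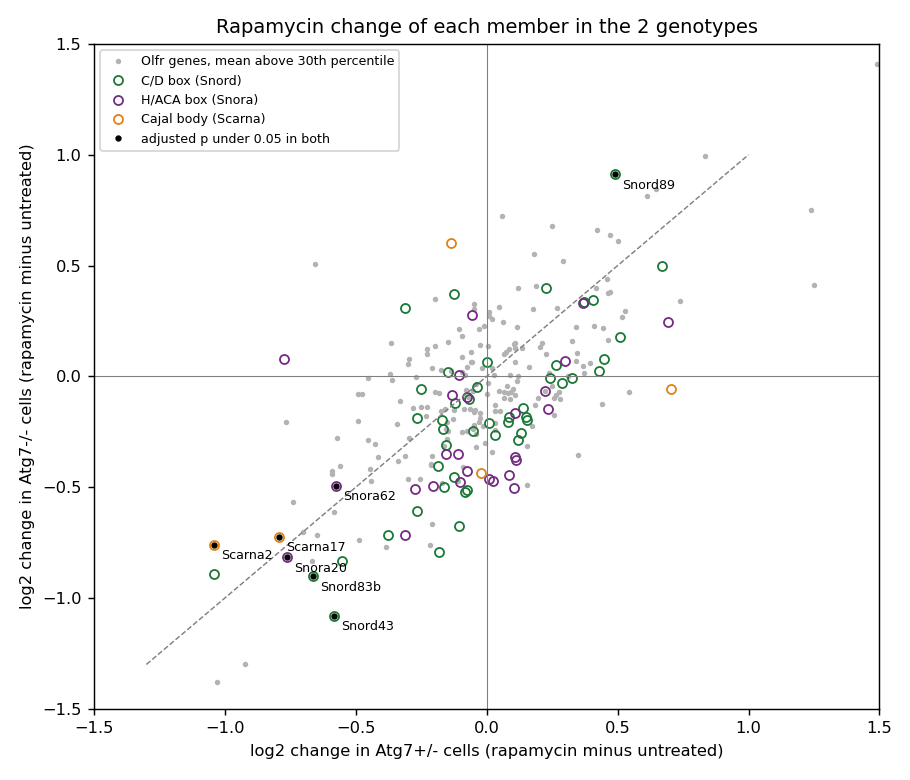
Log2 change with rapamycin in Atg7-/- cells (vertical) against Atg7+/- cells (horizontal) for the small RNA genes (open circles by class) and receptor genes brighter than 3.549 (grey), with the line of equal change dashed and axes limited to 1.5 either way. The 7 named members passed in both genotypes, 6 in the lower left and Snord89 in the upper right.

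Judged against the receptor genes, the changes were of moderate size. The 95th percentile of the absolute receptor change was 0.526 in Atg7-/- cells and 0.499 in Atg7+/- cells, and 12 of the 18 and 9 of the 10 called members went beyond it. Against receptor genes brighter than 3.549 the percentiles were 0.996 and 0.925, and 1 called member went beyond each, Snord43 in Atg7-/- cells and Scarna2 in Atg7+/- cells. The receptor genes were not all still, since 13 of 1105 changed by more than 0.996 in Atg7-/- cells and the largest of these changes was 2.51. Among the members, the median absolute change was 0.322 and 0.166, against 0.205 and 0.199 for the brighter receptor genes.

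The difference between the rapamycin changes of the 2 genotypes passed for no gene. In the limma interaction test 0% of the 22180 genes were called, and 13 members (16.7%) had an unadjusted p under 0.05, against 6.1% of all genes. The smallest were Snord43 (-0.50, Atg7-/- minus Atg7+/-, limma adjusted p = 0.608), Snord23 (-0.39, adjusted p = 0.691) and Snora16a (0.85, adjusted p = 0.692). The median difference over the members was -0.26, against 0.01 over all genes, and was -0.13 without rapamycin Atg7-/- replicate 3. A larger fall in Atg7-/- cells was thus not shown.

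No member passed between the genotypes. In untreated cells 0 of 78 members passed, against 2.02% of all genes, and 10 (12.8%) had an unadjusted p under 0.05 in limma, against 14.7% of all genes. Snord61, inside the RNA-binding protein gene Rbmx, was at 5.21, 6.07, 6.00 and 4.99 in untreated Atg7-/- cells, against 6.50, 6.34, 6.14 and 6.29 in untreated Atg7+/- cells, with no overlap. Its difference was -0.75 (limma adjusted p = 0.0751), and that of Snora73a was 0.37 (adjusted p = 0.082). The median over the members was 0.07, but 0.12 without untreated Atg7-/- replicate 1 and 0.04 without replicate 4 of that group.

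Under rapamycin 0 of 78 members passed between the genotypes, against 2% of all genes, and 13 (16.7%) had an unadjusted p under 0.05 in limma, against 14.9% of all genes. Snora30 averaged 7.02 ± 0.185 in rapamycin Atg7-/- cells and 7.53 ± 0.263 in rapamycin Atg7+/- cells (SD, n = 4 each), a difference of -0.52 (limma adjusted p = 0.0598). Scarna10 differed by 0.73 (adjusted p = 0.0662). The median over the members was -0.12 with 64 below 0, but -0.05 with 46 below 0 without rapamycin Atg7-/- replicate 3, and -0.20 without replicate 1 of that group. These comparisons share arrays with the rapamycin comparisons, so that their values are not independent of them.

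Most members lie inside other genes. By position, from RefSeq's gene records, 67 members lay inside 1 other gene, 7 inside several and 4 inside none (Scarna2, Snord118, Snord13 and Snord89), and 57 had a single host that was measured, with 43 such hosts in all. The strand of the members was not in the tables used, so hosts were assigned by position alone. A probe set inside an intron reads any RNA that holds those bases, so the mature small RNA and unspliced host RNA cannot be told apart here.

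With all 16 arrays, no member was called together with its host. With a measured host, 12 members passed in Atg7-/- cells, and none of their hosts passed. Of members with a measured host, 6 passed in Atg7+/- cells, again with no host that passed. The hosts that passed were 9 of 43 in Atg7-/- cells and 5 of 43 in Atg7+/- cells, against 14.8% and 10% of all genes, and member and host changed with the same sign in 32 and 35 of the 57 pairs. Without rapamycin Atg7-/- replicate 3, 9 members and 4 hosts passed in Atg7-/- cells, and Snora47 and its host Zbed3 both did. Across the 57 members the changes of member and host correlated with r = 0.136 in Atg7-/- cells and 0.183 in Atg7+/- cells. Without rapamycin Atg7-/- replicate 3, r was 0.051 in Atg7-/- cells, with the same sign in 27 of the 57 pairs. These are descriptions over genes in which some members share a host. Tcp1, the host of Snora20, changed by 0.03 and -0.04, and Rpsa, the host of Snora62, by 0.18 in each genotype (limma adjusted p = 0.113 and 0.148).

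**Figure D5:**
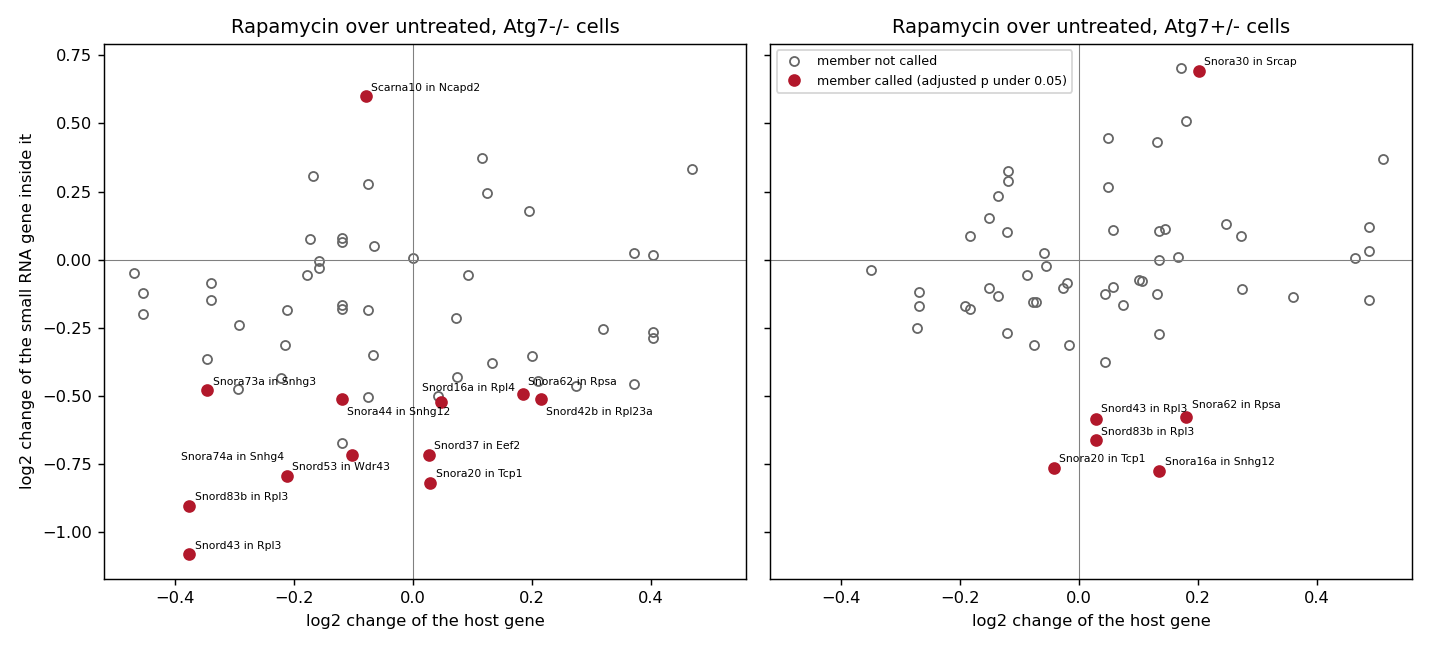
Log2 change with rapamycin of each small RNA gene (vertical) against that of the gene it lies in (horizontal), for 57 members with a measured host in Atg7-/- cells (left) and Atg7+/- cells (right), red where the small RNA passed a limma adjusted p of 0.05. The called members below 0 sit at host changes between -0.38 and 0.21.

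Members of 1 host also differed among themselves. Snhg12, a non-coding host with 4 measured members, changed by -0.12 and 0.13 and did not pass. Its member Snora44 fell in Atg7-/- cells, Snora16a fell in Atg7+/- cells, and Snora61 and Snord99 passed in neither (changes of -0.17 and 0.07 in Atg7-/- cells, and of 0.11 and 0.00 in Atg7+/- cells). The non-coding gene 2410006H16Rik rose by 0.40 and 0.49 (limma adjusted p = 0.00481 and 0.00209), while its 3 members Snord49a, Snord49b and Snord65 changed by -0.29 to 0.02 in Atg7-/- cells and by -0.15 to 0.12 in Atg7+/- cells. Snhg3, the host of Snora73a and Snora73b, changed by -0.35 in Atg7-/- cells (adjusted p = 0.0522) and 0.06 in Atg7+/- cells.

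Host genes of this kind often start at a run of pyrimidines, a feature known from transcripts whose translation follows mTORC1. The start sites of the 3 non-coding hosts just described are shown to compare them in this feature. Each sequence is RefSeq's on GRCm38.p6, read 5′ to 3′ on the gene's strand from 40 bases before the annotated start through 20 bases from it. Capitals mark the longest unbroken run of C and T that touches the 10 bases on either side of the start, where it has at least 8 bases.
Snhg12, chr4:132308638-132308697, plus strand: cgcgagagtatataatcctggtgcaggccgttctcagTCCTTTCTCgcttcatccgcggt
2410006H16Rik, chr11:62602837-62602896, plus strand: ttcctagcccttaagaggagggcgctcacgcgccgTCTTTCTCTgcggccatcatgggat
Snhg3, chr4:132353667-132353726, minus strand: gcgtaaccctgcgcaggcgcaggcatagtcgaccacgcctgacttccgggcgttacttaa
Snhg12 and 2410006H16Rik each had a run of 9, and the longest run at Snhg3 was 5. Searched on the gene's strand alone, 13.7% of 32851 start windows in the table held such a run. Of the 36 measured hosts with a window, 9 had such a run (25%). The 13.7% counts windows and the 25% counts genes, which may have several windows, so these shares cannot be compared directly. Rpl3 is not in that table. The run is a description of these letters and not a site.

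Genes of the machinery that makes and carries these RNAs changed little. Of the 3 measured box C/D core proteins, Nop56 and Snu13 fell in Atg7-/- cells (changes of -0.29 and -0.31, limma adjusted p = 0.0106 and 0.0237), Snu13 fell in Atg7+/- cells (-0.41, adjusted p = 0.00652), and Nop58 passed in neither. With the mean of a gene's probe sets Nop56 was at -0.18 and did not pass (adjusted p = 0.35), and Snu13 lost its call in Atg7-/- cells in 5 of 25 settings (-0.30 to -0.25), for example without rapamycin Atg7-/- replicate 2. Of the 4 box H/ACA core proteins, Dkc1, the pseudouridine synthase, fell in Atg7-/- cells (-0.27, adjusted p = 0.0238) and missed the threshold in Atg7+/- cells (-0.24, adjusted p = 0.0577). The call of Dkc1 was lost in 4 of 25 settings, with changes of -0.27 to -0.23. None of 10 assembly factors and none of 5 Cajal body and cap proteins passed with rapamycin in either genotype. Among 5 genes for intron debranching and end trimming, Parn, a nuclease that trims the ends of such RNAs, rose in Atg7-/- cells (0.58, adjusted p = 0.00474). Between the genotypes, Shq1, Znhit6 and Smn1 passed as higher in untreated Atg7-/- than in untreated Atg7+/- cells, where 2.02% of all genes passed. Ruvbl2, Znhit6 and Nhp2 passed as higher in rapamycin Atg7-/- than in rapamycin Atg7+/- cells, where 2% of all genes passed. These genotype calls were not recomputed under the alternative settings.

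Non-coding hosts of the Snhg type showed few changes, and other small structured RNAs showed larger ones. Of 18 measured non-coding hosts, Snhg18 fell in Atg7-/- cells, and Snhg5, Snhg6 and Zfas1 rose in Atg7+/- cells by 0.34, 0.36 and 0.36. Over all genes 14.8% passed in Atg7-/- cells and 10% in Atg7+/- cells, and Snhg18 was dim, with a mean of 3.34. Zfas1 lost its call in 7 of 25 settings and was at 0.03 with the mean of its probe sets, Snhg6 lost it in 2, and Snhg18 lost it without any of 4 arrays, rapamycin Atg7-/- replicate 3 among them. Of 9 other small RNAs, Rnu3a, a box C/D RNA that processes the ribosomal RNA precursor but whose symbol is outside the rule, was at 7.79, 7.93, 9.08 and 7.93 in rapamycin Atg7-/- cells, against 9.44, 10.11, 9.71 and 10.21 in untreated Atg7-/- cells. It fell by 1.68 and 1.66 on the log2 scale in the 2 genotypes (limma adjusted p = 0.000492 and 0.000951). Rnu11, of the minor spliceosome, rose by 1.01 and 1.08 (adjusted p = 0.000124 and 0.000125). Rny1, Rny3 and Rpph1 also fell in Atg7+/- cells, so that small structured RNAs outside the members moved in both directions. In Atg7-/- cells Rny3 and Rpph1 did not pass with all arrays (-0.57 and -0.39, limma adjusted p = 0.0893 and 0.142). Without rapamycin Atg7-/- replicate 3 both passed there (-0.75 and -0.56, adjusted p = 0.0258 and 0.0208), as did Rnu12 (-0.37, adjusted p = 0.028). Rny1 was dim, with values of 2.38 to 3.9 over all arrays. Fewer cells that hold an RNA and less of it per cell cannot be told apart in these bulk samples.

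The changes showed little relation to annotated length. Across the 78 members, the correlation of the change with length was 0.011 in Atg7-/- cells and 0.097 in Atg7+/- cells, and with the level it was -0.252 and -0.022. These are descriptions over genes that share the same arrays. Of the 3 members with more than 1 probe set, Snora19 had identical values in both, and the dimmer probe set of Snora33 changed by -0.66 in Atg7-/- cells, against -0.43 for the brighter one.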

How the data were processed

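Biotin-labelled cDNA from 1 to 5 ng of total RNA was hybridized to 16 gene arrays, per the labels' protocols. Log2 signals were deposited by the authors, who used RMA and Partek 6.6, per the submitters' processing notes, which give no settings. The file does not state the log base, which was taken as 2. RMA equalizes the arrays, so a change common to all genes would not show. The genome build is not given in the sources used here. Of 41345 probe sets, 23521 had 1 symbol in the platform annotation, for 22180 genes, and the probe set with the highest mean stood for a gene.

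All 22180 genes were tested with no filter on dim genes in limma 3.58.1 (R 4.3.3), with 1 mean per group, 12 residual and 6.23 prior degrees of freedom, two-sided tests, Benjamini-Hochberg adjustment over all genes and a threshold of 0.05 for a call. The steps were tested on simulated data. Arrays give no read depth, and their number limits the precision. The members and gene lists were chosen with earlier results of these data known, so lists are described by counts and medians. Members named are the 10 brightest, every Scarna gene, and the called members with non-overlapping arrays and the largest changes (up to 4 each way), or those with the smallest p where none was called; also named were hosts of these and up to 2 called genes per list. Other members, among them Snora44, Snora62, Snora68, Snora74a, Snord13 and Snord118, were named outside this rule with their values known. So were other genes, among them Shq1, Znhit6, Smn1, Ruvbl2, Nhp2, Snhg5, Rnu12, Tnfrsf18 and Cd8b1. The rule asked for hosts on the same strand, which could not be applied. Fbl, Gas5, Snhg8, Snhg16, Rnu3b1, Rmrp, Rnu73b and 3 erythroid markers had no gene with 1 symbol and were not analysed here. Replicate numbers were not used as pairs in the main fit. Of 24 same-numbered pairs, 4 deviated together with a correlation over 0.1 (range -0.07 to 0.30). Yet 9 of 16 arrays correlated best with their own number, so whether the numbers mark pairs cannot be told. Alternatives were other filters, normalizations, variance models, array weights, probe set choices, the replicate block, and leaving out each array.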

Additional observations from a re-analysis of the deposited data

Results flagged for a closer look

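Among 136 groups of 4 arrays, those of the named or called members and of the mean of all 78, examined for 1 array far from the others, 5 had a gap above Dixon's 95% critical value, and chance flags about 1 in 20 such groups. In 4 of the 5 the array was rapamycin Atg7-/- replicate 3. There Snora75 was at 7.59, against 8.75 to 8.98 on the other 3 arrays of the group. Scarna8 was at 3.17 there, against 4.97 to 5.22. Snora73a was at 6.6, against 6.75 to 6.77, a narrow gap in a group with little spread. Snord89 was at 9.45, against 9.04 to 9.10, and so was higher on this array, unlike the other 3 members. The fifth was Snord8 on untreated Atg7+/- replicate 1, at 8.05 against 8.46 to 8.51. Its call in Atg7+/- cells was lost when that array was left out.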

How the results depend on the processing

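Of the results recomputed under the alternatives, which were the counts, the medians, the receptor percentiles and the called members, none changed direction. Without rapamycin Atg7-/- replicate 3 the uncalled changes of several members in Atg7-/- cells did. Among these were Scarna8, Snora16a, Snord69, Snord70 and, of the brightest members, Snora21, Snord47 and Snord49b. In 25 settings, Snord43, Snord83b, Scarna17 and Snora20 passed in both genotypes each time. The number of members called in Atg7-/- cells was 11 with only the compared arrays in the fit, against 18, and 12 to 19 when 1 array was left out; it was lowest without untreated Atg7-/- replicate 2. The shares of all genes were 9.97% with the compared arrays, 14.8% with all and 12.3% without that array. In Atg7+/- cells it was 7 to 14 (10 with all arrays): 14 without rapamycin Atg7-/- replicate 3, and fewest, 7, without rapamycin Atg7+/- replicate 2 or untreated Atg7+/- replicate 1, where 11.8%, 6.38% and 7.7% of all genes passed. With only the compared arrays in the fit it was 13 in Atg7+/- cells, where 11.3% of all genes passed. Between untreated genotypes 1 member passed under quantile normalization or array weights, and 0 to 1 with 1 array left out. Between rapamycin genotypes 1 passed under either filter on dim genes or with array weights, 3 with the trend and robust options, and 0 to 2 with 1 array left out. The median difference of the rapamycin effects ran from -0.296 to -0.134 with 1 array left out, -0.134 being without rapamycin Atg7-/- replicate 3. The receptor percentile of 0.526 in Atg7-/- cells became 0.996 with brighter receptors or the filter on the mean and 1.16 with the filter on the highest group mean; in Atg7+/- cells 0.499 became 0.925, 0.925 and 0.922, and the shares called became 17.4% and 14.9%. With the replicate block 19 and 11 members were called in Atg7-/- and Atg7+/- cells, and 9 of 16 arrays correlated best with their own number, a hint from the data and not the design. Calls lost in any of these 25 settings are given beside each called member. The fit on only the compared arrays is not among the 25, and the calls lost in it were not listed by member. Fits on fewer arrays have fewer degrees of freedom, and the other causes of these shifts were not tested.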

Other observations

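Probe sets with several symbols were not members, and 46 of them carried a small nucleolar or Cajal body RNA symbol. Of these, 16 were rows of the Snord116 cluster, an imprinted group known from brain, and they shared a single set of values, so they count as 1 measurement. They were dim, with a mean of 3.40, and their shared value changed by -0.54 in Atg7-/- cells and -0.54 in Atg7+/- cells, past an adjusted p of 0.05 over 41345 probe sets in both (limma), where 11.8% and 8.06% of probe sets passed. Rbfox3, a neuronal marker with a mean under 5.24 in every group, fell as well, by 0.47 and 0.33 on the log2 scale. Its call in Atg7+/- cells was lost in 7 of 25 settings (limma adjusted p up to 0.122). Of the other 30 rows, 5 fell and 2 rose in Atg7-/- cells, and 3 rose in Atg7+/- cells.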
